A study of Mus musculus with 12 samples.

Results

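Proteoglycans of the cardiac extracellular matrix were examined through 10 genes, which were taken by symbol from the 25171 loci of the count table. They were the small leucine-rich proteoglycan (SLRP) genes Dcn, Bgn, Lum, Fmod, Ogn, Prelp, Aspn and Omd, and the large aggregating proteoglycan genes Vcan and Acan. All 10 were listed once in the table. They were taken by symbol, from a list drawn up with earlier results of these data known. RNA of 12 mouse hearts was sequenced, with 3 hearts in each of 4 groups. All mice carried loxP-stop-loxP-NOTCH2NLC-(GGC)98 at the Rosa26 site, a transgene with an expanded GGC repeat that is silent until Cre recombinase removes the stop. EIIa-tg mice also carried E2a-Cre, which acts in every tissue, and were 30 days old, as were the littermates without Cre (EIIa-ctl). According to the labels, Myh6-tg and Myh6-ctl mice carried Myh6-creERT2, a Cre that is made in cardiomyocytes and works only after tamoxifen. Myh6-tg mice received 3 injections of tamoxifen at 75 mg per kg from day 60 and were 90 days old at collection. Myh6-ctl mice received corn oil in place of tamoxifen, so tamoxifen itself and the recombined transgene cannot be told apart in this model. The Cre of the Myh6 model acts in cardiomyocytes, and any change in a gene of another cell type was measured in whole-heart RNA.

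Small leucine-rich proteoglycans are secreted proteins of interstitial cells, mainly fibroblasts in the heart. Most bind fibrillar collagen and set how collagen fibrils assemble, and several also bind growth factors of the TGF-beta family. Decorin (Dcn) and biglycan (Bgn) form one class with asporin (Aspn), lumican (Lum) and fibromodulin (Fmod) form another with osteomodulin (Omd) and Prelp, and mimecan (Ogn, also named osteoglycin) belongs to another. Versican (Vcan) and aggrecan (Acan) are much larger, carry many chondroitin sulfate chains and bind hyaluronan. Versican is known for its part in heart development and provisional matrix, and aggrecan for cartilage.

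Each heart had between 38343106 and 50969834 counts, at which 3 counts, the floor used here, correspond to 0.0589 to 0.0782 CPM, the counts scaled to the total of the library. The tissue is labelled heart, but the extraction protocol in the labels speaks of brain, and it was therefore checked with markers. The 10 cardiomyocyte genes summed to between 11654 and 50987 CPM in every heart, and 8 brain genes to between 6.41 and 14.3 CPM. Levels of Esr1, the gene of the oestrogen receptor whose ligand-binding part is used in creERT2, were not alike in the groups labelled with this Cre. They were 1067 to 2023 CPM in Myh6-ctl hearts but 1.31 to 3.03 CPM in Myh6-tg hearts and 0.364 to 1.24 CPM in the EIIa hearts. The groups are named here as the labels give them, but by these levels Myh6-ctl and Myh6-tg hearts may also differ in the creERT2 transgene, and that difference cannot be told apart from tamoxifen or the recombined repeat in any Myh6 value given here. Replicate 1 of each group stood apart by its Y-linked genes, with 4224 to 7307 counts against at most 2 in all other hearts. By these counts replicate 1 was the male heart of each group. Sex and anything else particular to replicate 1 cannot be told apart, and leaving out replicate 1 of a group leaves out its male heart. Genes of the mitochondrial genome took 31.8% to 38.3% of the counts in the control hearts, 28.5% to 32.3% in EIIa-tg hearts and 15.5% to 18.6% in Myh6-tg hearts, and the levels of single genes are therefore given as CPM scaled by TMM, which does not assume that the totals are comparable.

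On the per-length scale of the deposited FPKM values, decorin was the highest of the 10 genes in EIIa-ctl hearts, at 359 ± 32.9 FPKM (SD, n = 3), followed by biglycan at 151 ± 43.8. Lumican (52.9 ± 19.5) and mimecan (50.1 ± 4.21) came next and overlapped between hearts, as did asporin (19.6 ± 3.46) and Prelp (19.1 ± 4.05). Versican stood at 1.76 ± 0.832 FPKM, above osteomodulin (0.706 ± 0.169) and fibromodulin (0.685 ± 0.356), whose ranges overlapped. The same order of means was found in EIIa-tg and Myh6-ctl hearts. In Myh6-tg hearts the order of means was another: biglycan was first at 1259 ± 333 FPKM, decorin second at 1048 ± 517 with an overlapping range, and asporin next at 181 ± 105. Fibromodulin had a mean of 55.6 ± 52.5 FPKM there and lay between 0.744 and 105, so that its place between lumican and versican is not beyond its spread.

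Aggrecan had few counts, at most 29 in any heart. It had 0, 0 and 5 counts in EIIa-ctl replicates 1, 2 and 3, 4, 29 and 0 counts in EIIa-tg, 3, 0 and 11 counts in Myh6-ctl, and 0, 8 and 0 counts in Myh6-tg. These counts did not pass the filter on low counts in any comparison. The other 9 genes passed it in all of them, each also by the level of its control hearts.

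The comparison of EIIa-tg with EIIa-ctl hearts addresses how the matrix genes stood in young mice that expressed the repeat in all tissues. Decorin rose, and lumican and biglycan were higher in each transgenic heart than in any control heart but missed the threshold. At an adjusted p under 0.05 in edgeR's quasi-likelihood test, 1 of 9 genes tested was called higher and 0 lower, beside 8.65% and 8.3% of all 14908 genes tested. With the stricter thresholds of the study, which ask for an adjusted p below 0.01 and at least 1 log2 unit of change up or down, 0 of the 9 genes and 0% of all genes were called in edgeR. The study itself applied these thresholds to DESeq2 and reported differentially expressed genes in both models, so these counts hold for edgeR only. At an unadjusted p under 0.05, 4 of the 9 genes and 5204 of all genes passed, and DESeq2 called 4 of the 9 genes at an adjusted p under 0.05. The share of all genes that DESeq2 called is not given here, so its counts are not read as a result about the 9 genes.

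Decorin, which binds collagen and TGF-beta, had 715, 757 and 672 CPM in EIIa-ctl replicates 1, 2 and 3 and 1506, 1024 and 1598 CPM in EIIa-tg. The groups did not overlap, and EIIa-tg replicate 2 was the lowest of its group. The log2 fold change was 0.94 (SE 0.17) with an adjusted p of 0.0186. Leaving out 1 heart ended this call for EIIa-ctl replicate 1 (adjusted p = 0.0825), EIIa-ctl replicate 3 (0.0894), EIIa-tg replicate 1 (0.0653) and EIIa-tg replicate 3 (0.0594) in edgeR, at log2 fold changes of 0.82 to 0.94. The call was also lost with all 12 hearts in one fit (edgeR adjusted p = 0.111), with the replicate block (0.0680), in limma on log2(FPKM + 1) with no filter (0.0531) and without replicate 1 of every group (0.201), so that it held in 11 of 19 alternative settings.

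Lumican, which spaces collagen fibrils, had 98.4, 194 and 143 CPM in EIIa-ctl and 206, 257 and 352 CPM in EIIa-tg. Its log2 fold change was 0.90 (SE 0.26, edgeR adjusted p = 0.0502). Biglycan, the closest relative of decorin, had 339, 527 and 365 CPM in EIIa-ctl and 529, 643 and 973 CPM in EIIa-tg, and the lowest transgenic heart was just above the highest control heart. Its log2 fold change was 0.80 (SE 0.25, edgeR adjusted p = 0.0589). Versican had 14.7, 28.3 and 16.0 CPM in EIIa-ctl and 23.7, 31.6 and 44.8 CPM in EIIa-tg. The versican ranges overlapped through EIIa-ctl replicate 2, at a log2 fold change of 0.76 (SE 0.29, edgeR adjusted p = 0.106).

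The other 5 genes did not pass the test in EIIa-tg hearts, and their log2 fold changes lay between -0.22 and 0.37. Mimecan had 156, 148 and 133 CPM in EIIa-ctl and 109, 143 and 125 CPM in EIIa-tg, and its 95% interval of the log2 fold change was -0.50 to 0.07. Prelp, which anchors basement membranes to collagen, had 73.7, 92.9 and 66.7 CPM in EIIa-ctl and 74.1, 80.3 and 85.0 CPM in EIIa-tg, with an interval of -0.27 to 0.33. These intervals leave out a log2 change of 1 in either direction for both genes. Asporin ranged from 45.7 to 59.1 CPM in EIIa-ctl and from 48.4 to 76.2 CPM in EIIa-tg, osteomodulin from 1.36 to 1.98 and from 1.47 to 2.86 CPM, and fibromodulin from 1.59 to 3.70 and from 1.43 to 2.56 CPM.

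**Figure D1:**
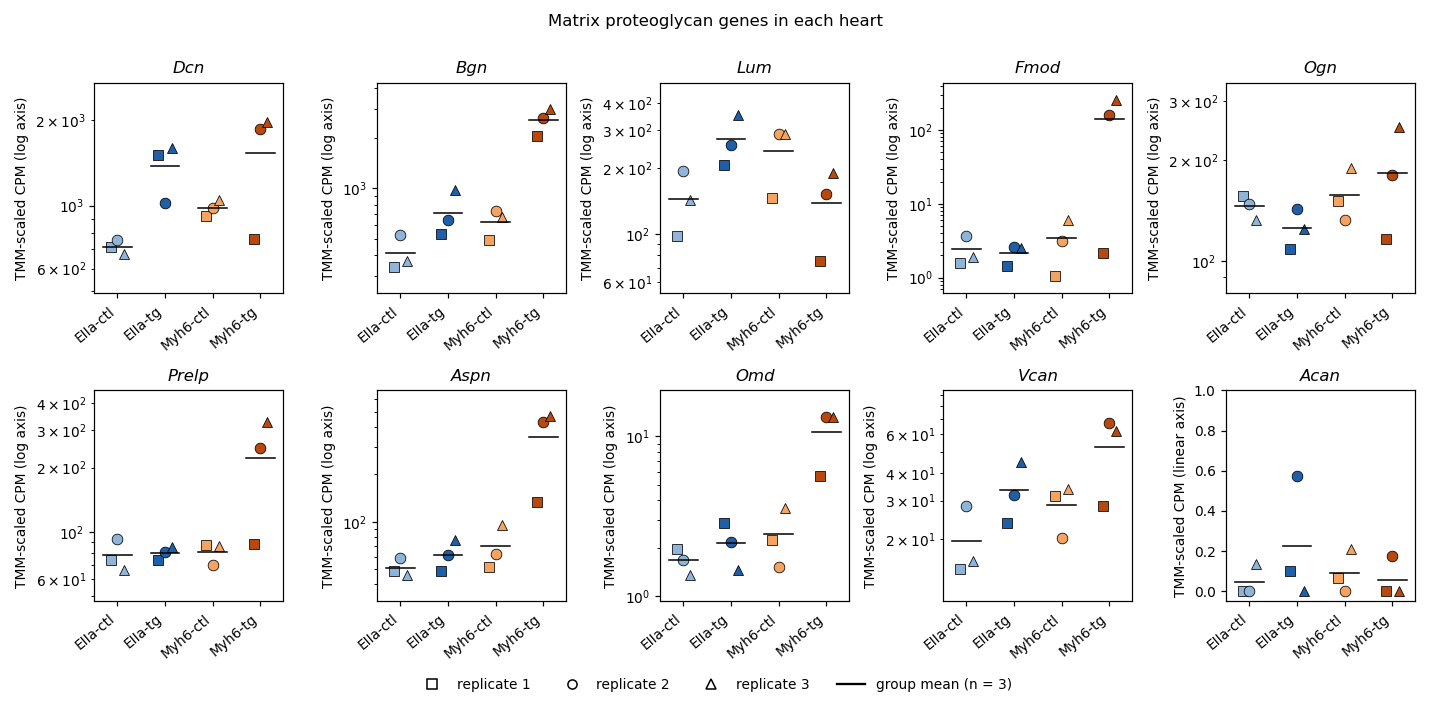
TMM-scaled CPM of each gene (vertical axis, logarithmic except for Acan) in the 3 hearts of each group (horizontal axis), with squares, circles and triangles for replicates 1, 2 and 3 and a line at the group mean. Bgn, Aspn, Omd and Prelp were higher in each Myh6-tg heart than in any Myh6-ctl heart, while Fmod was at 161 and 256 CPM in 2 Myh6-tg hearts and at 2.18 CPM in replicate 1.

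The comparison of Myh6-tg with Myh6-ctl hearts addresses the same genes in adult mice that, by their labels, expressed the repeat in cardiomyocytes. Biglycan, asporin, osteomodulin and fibromodulin rose, while decorin, mimecan, lumican, Prelp and versican did not pass the test. In edgeR 4 of 9 genes tested were called higher at an adjusted p under 0.05 and 0 lower, beside 8.96% and 9.38% of all 15298 genes tested. With the thresholds of the study, again in edgeR, 1 of the 9 genes was called, biglycan, beside 3.97% of all genes. The median log2 fold change of the 9 genes was 1.45, beside 0.03 over all genes tested. In whole-heart RNA, fewer cells of a type and less RNA per cell cannot be told apart.

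Biglycan had 489, 730 and 677 CPM in Myh6-ctl replicates 1, 2 and 3 and 2063, 2641 and 2976 CPM in Myh6-tg. Every transgenic heart was above every control heart by a wide margin. The log2 fold change was 2.02 (SE 0.28) at an edgeR adjusted p of 0.00545. Biglycan was called in all 19 alternative settings, in which its adjusted p was at most 0.0299, including each of the 6 hearts left out.

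Asporin, which binds collagen and TGF-beta and carries a run of aspartates, had 51.9, 62.2 and 95.7 CPM in Myh6-ctl and 134, 433 and 468 CPM in Myh6-tg. Its log2 fold change was 2.30 (SE 0.48, edgeR adjusted p = 0.0177). Osteomodulin, a keratan sulfate proteoglycan best known from bone, had 2.26, 1.53 and 3.55 CPM in Myh6-ctl and 5.68, 13.3 and 13.2 CPM in Myh6-tg. Its log2 fold change was 2.13 (SE 0.44, edgeR adjusted p = 0.0170). For both genes the groups did not overlap, and replicate 1 was the Myh6-tg heart closest to the controls. Leaving out Myh6-ctl replicate 1 or 2 or Myh6-tg replicate 2 or 3 ended both calls, with edgeR adjusted p of 0.0553 to 0.0804 for asporin and 0.0549 to 0.0743 for osteomodulin. Asporin was called in 14 and osteomodulin in 15 of 19 alternative settings, the other loss being asporin in limma on log2(FPKM + 1) with no filter (adjusted p = 0.0518).

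Fibromodulin, which regulates the thickness of collagen fibrils in tendon, had 1.04, 3.13 and 6.03 CPM in Myh6-ctl and 2.18, 161 and 256 CPM in Myh6-tg. Replicates 2 and 3 were far above the controls, whereas replicate 1 lay inside the control range. The log2 fold change was 5.36 (SE 1.45, edgeR adjusted p = 0.0402), and 44 of the 15298 genes tested had a larger rise. The call was lost in edgeR when any 1 of the other 5 hearts was left out (adjusted p of 0.0826 to 0.135), namely each Myh6-ctl heart and Myh6-tg replicates 2 and 3, and it was kept without Myh6-tg replicate 1. Limma on log2 FPKM also ended it, with adjusted p of 0.0618 at a pseudocount of 1, 0.0930 at 0.1 and 0.199 with no filter, so that fibromodulin was called in 11 of 19 alternative settings. The fold change rests on 2 of the 3 transgenic hearts.

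Prelp had 86.8, 69.7 and 86.3 CPM in Myh6-ctl and 87.4, 248 and 327 CPM in Myh6-tg. The lowest transgenic heart, replicate 1, exceeded the highest control heart by less than 1 CPM, and the log2 fold change of 1.45 (SE 0.43) had an edgeR adjusted p of 0.0535. Decorin had 916, 978 and 1044 CPM in Myh6-ctl and 760, 1853 and 1975 CPM in Myh6-tg, with replicate 1 below all controls (log2 fold change 0.64, SE 0.37, edgeR adjusted p = 0.257). Versican had 31.4, 20.2 and 33.8 CPM in Myh6-ctl and 28.4, 67.4 and 61.6 CPM in Myh6-tg (log2 fold change 0.88, SE 0.35, edgeR adjusted p = 0.117). In each of these 3 genes replicates 2 and 3 were above all controls and replicate 1 was the lowest Myh6-tg heart. Without Myh6-tg replicate 1, edgeR called all 3, at log2 fold changes of 1.83 for Prelp (adjusted p = 0.00127), 0.96 for decorin (0.0142) and 1.17 for versican (0.0119).

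Lumican had the lowest log2 fold change of the 9 genes. It had 147, 289 and 288 CPM in Myh6-ctl and 75.0, 152 and 190 CPM in Myh6-tg, and each transgenic heart was lower than the control heart with the same replicate number, though the groups overlapped. The log2 fold change was -0.79 (SE 0.39, edgeR adjusted p = 0.198). When replicate numbers were entered as a block, it was -0.83 with an edgeR adjusted p of 0.0218, and lumican then became a call in the lower direction. No label pairs these hearts, so this call is not read as support for a fall. The block ended no call among the 9 genes in this model. Mimecan had 151, 132 and 189 CPM in Myh6-ctl and 117, 181 and 251 CPM in Myh6-tg, with overlapping ranges (log2 fold change 0.22, SE 0.30, edgeR adjusted p = 0.652).

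Replicate 1 was the lowest of the 3 Myh6-tg hearts in 9 of 9 genes. The same was true of 41.3% of the 15929 genes tested over all hearts. In EIIa-ctl, EIIa-tg and Myh6-ctl hearts replicate 1 was lowest in 4, 7 and 5 of the 9 genes, beside 31.1%, 28.4% and 30.2% of all genes. Without Myh6-tg replicate 1 the count of proteoglycan genes called in this model went from 4 to 7, and without replicate 1 of every group to 8. The share of all genes called in these settings is not given here. Leaving out Myh6-tg replicate 1 also removes the Myh6-tg heart with Y-linked counts, while its counterpart stays in Myh6-ctl.

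Marker lists of cell types were read beside these genes, and not all of their members changed. In Myh6-tg hearts 6 of 12 fibroblast markers and 7 of 11 markers of activated fibroblasts were called higher and 0 lower. Of all genes tested there, 8.96% were called higher and 9.38% lower. The log2 fold change was above 0 for 10 of the 12 and 8 of the 11. It was below 0 for the fibroblast markers Ddr2 (-0.60) and Dpt (-0.33). Of the activated fibroblast markers, Acta2 (-0.13), Tnc (-0.04) and Fap (-0.24) were below 0. The summed fibroblast markers were 3587, 2873 and 3870 CPM in Myh6-ctl replicates 1, 2 and 3 and 3671, 7771 and 8318 CPM in Myh6-tg. The summed markers of activated fibroblasts were 369 to 508 CPM in Myh6-ctl and 1557, 4902 and 5351 CPM in Myh6-tg replicates 1, 2 and 3. Replicate 1 was again the lowest Myh6-tg heart on both sums. Its cardiomyocyte markers summed to 36347 CPM, inside the control range of 33525 to 44030 CPM, while replicates 2 and 3 had 14766 and 11654 CPM. Macrophage markers summed to 1307 CPM in replicate 1 and to 705 and 679 CPM in replicates 2 and 3, and 0 of 8 were called in edgeR, although 2 passed an unadjusted p of 0.05.

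In EIIa-tg hearts 4 of 12 fibroblast markers, 3 of 11 markers of activated fibroblasts and 8 of 8 macrophage markers were called higher. Of all genes tested, 8.65% were called higher and 8.3% lower in EIIa-tg, and 8.96% and 9.38% in Myh6-tg hearts. The summed fibroblast markers were 2618 to 3498 CPM in EIIa-ctl and 4166 to 5797 CPM in EIIa-tg, without overlap, and those of activated fibroblasts were 309 to 586 and 331 to 617 CPM, with overlap. The summed macrophage markers were 283 to 419 CPM in EIIa-ctl and 544 to 744 CPM in EIIa-tg. The part of cell numbers in the levels of the proteoglycan genes was not tested in either model. Cartilage, tendon and valve markers summed to 21.0 to 24.3 CPM in EIIa-ctl, 29.2 to 44.1 in EIIa-tg, 26.9 to 35.4 in Myh6-ctl and 31.8 to 53.0 in Myh6-tg. Of these markers 2 of 7 tested in EIIa-tg and 2 of 6 tested in Myh6-tg hearts were called higher. In EIIa-tg they were Cnmd and Cytl1, at log2 fold changes of 3.47 and 0.72 (edgeR adjusted p = 0.0398 and 0.0249). In Myh6-tg they were Scx, from 5.85 to 18.2 CPM on average (edgeR adjusted p = 0.00947), and Col11a1, at 6.94 CPM. Col11a1 was at 0 in the Myh6-ctl hearts. It passed the filter only through the Myh6-tg hearts, so its call is not read as a result. The median log2 fold change of the list was 0.72 in EIIa-tg and -0.17 in Myh6-tg. Matn1 was at 0 in all 12 hearts and Col2a1 at or below 0.282 CPM. Epicardial markers summed to 16.9 to 59.0 CPM over all hearts, and 1 of 8 was called higher in each model. Endothelial markers summed to 1049 to 1221 CPM in EIIa-ctl and 819 to 932 in EIIa-tg, where 4 of 8 were called lower, and to 703 to 1377 in Myh6-ctl and 647 to 772 in Myh6-tg, where 0 of 8 were called in edgeR and 3 passed an unadjusted p of 0.05. Of the 8 smooth muscle and pericyte markers, 1 was higher and 2 were lower in EIIa-tg, and 1 was higher and 3 were lower in Myh6-tg hearts. Of the 10 cardiomyocyte markers, 1 was called lower in EIIa-tg and 4 in Myh6-tg hearts. Their sum was 41861 to 50987 CPM in EIIa-ctl and 22612, 37308 and 22601 CPM in EIIa-tg replicates 1, 2 and 3, without overlap. The most abundant genes weigh most in this sum, such as Myh6, at 12393 CPM on average in EIIa-ctl and 4884 in EIIa-tg. Tnnt2, Actn2 and Ttn overlapped between these groups (log2 fold changes 0.09, -0.09 and -0.17). In Myh6-tg hearts 3 of the 10 log2 fold changes were above 0, those of Tnnt2 (0.44), Actn2 (0.58) and Ttn (0.03). Replicate 2, the EIIa-tg heart with the highest sum, was the one with the least decorin. For biglycan, lumican and versican the lowest EIIa-tg heart was instead replicate 1, at 529, 206 and 23.7 CPM, whose cardiomyocyte sum was 22612 CPM. A link between these sums and the proteoglycan genes was not tested.

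**Figure D2:**
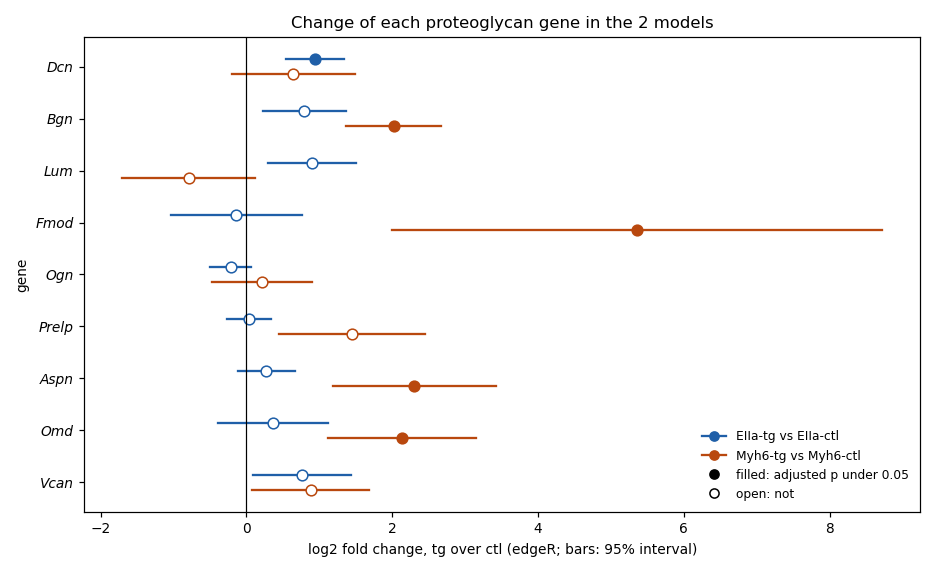
Log2 fold change of transgenic over control hearts (horizontal axis) for the 9 genes tested (vertical axis), with blue for EIIa, orange for Myh6, bars for the 95% interval of edgeR's fit and filled points for an adjusted p under 0.05. In the EIIa model the filled point is Dcn at 0.94, and in the Myh6 model Bgn, Fmod, Aspn and Omd are filled at 2.02 to 5.36.

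The make-up of the family was compared within each heart as shares of the summed FPKM of the 10 genes, which do not depend on how libraries are scaled. The summed FPKM was 761 to 1158 in Myh6-ctl against 1549 to 3736 in Myh6-tg. In Myh6-ctl hearts biglycan took 25.1% ± 2.72 (SD, n = 3) of it, against 47.7% ± 9.66 in Myh6-tg. Decorin went from 54.1% ± 3.71 to 36.3% ± 5.69 and lumican from 9.35% ± 2.29 to 2.39% ± 0.277. Mimecan went from 5.95% ± 1.01 to 3.07% ± 0.323, asporin from 2.88% ± 0.658 to 6.04% ± 1.79 and osteomodulin from 0.109% ± 0.0433 to 0.211% ± 0.0285. The ranges of these 6 shares did not overlap between the groups, and each had a two-sided exact permutation p of 0.1, the smallest that 3 against 3 hearts allow, with a Benjamini-Hochberg adjusted p of 0.222 over 20 tests. The shares of Prelp (2.19% and 2.47%) and versican (0.276% and 0.218%) overlapped, as did that of fibromodulin, with a mean of 1.62% in Myh6-tg.

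In the EIIa model the shares of decorin (55.3% ± 3.84 and 60.5% ± 7.25), biglycan (22.7% ± 2.88 and 22.7% ± 4.53) and lumican (7.93% ± 1.89 and 8.61% ± 1.64) overlapped between control and transgenic hearts. Mimecan took 7.73% ± 0.965 in EIIa-ctl and 3.91% ± 1.16 in EIIa-tg, Prelp 2.90% ± 0.184 and 1.74% ± 0.307, and asporin 2.99% ± 0.0874 and 2.09% ± 0.405. These 3 did not overlap, each at the smallest exact permutation p of 0.1 and an adjusted p of 0.222. Asporin thus took a smaller share in EIIa-tg and a larger share in Myh6-tg hearts than in the controls of each model. A share also falls when other genes of the sum rise. The mean FPKM of asporin was 19.6 in EIIa-ctl and 27.2 in EIIa-tg. In Myh6-ctl and Myh6-tg the means were 499 and 1048 for decorin, 55.6 and 85.7 for mimecan, and 88.8 and 68.6 for lumican.

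**Figure D3:**
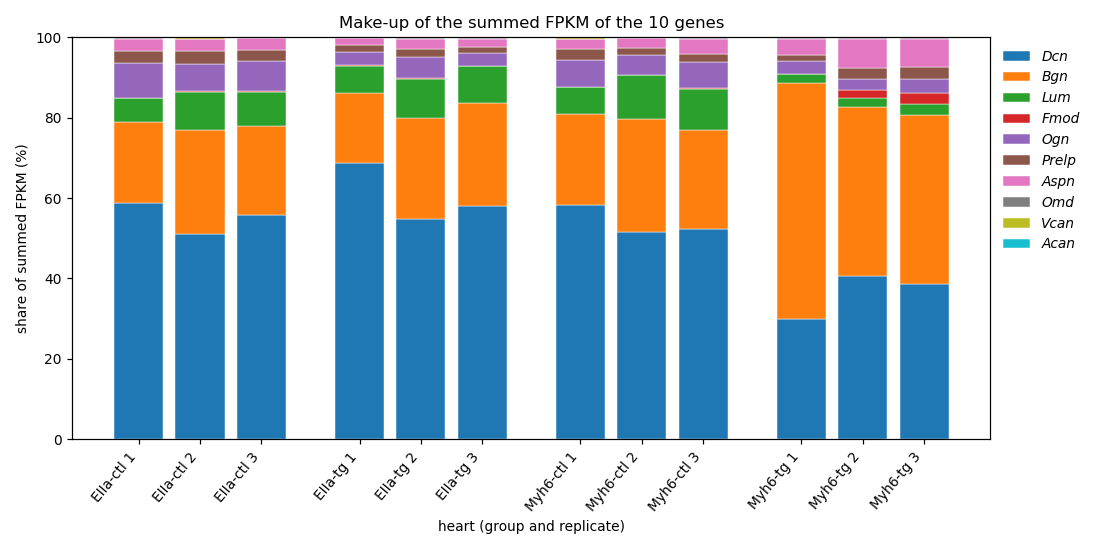
Share of each gene in the summed FPKM of the 10 genes (vertical axis, percent) in each of the 12 hearts (horizontal axis), with 1 stacked bar a heart. Bgn makes up 47.7% on average in Myh6-tg hearts and 22.7% to 25.1% in the other groups, while the green part of Lum shrinks from 9.35% in Myh6-ctl to 2.39% in Myh6-tg.

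Biglycan was also set against decorin in each heart, a ratio that was chosen after its values were seen and is given without a test. Biglycan had 0.388, 0.542 and 0.472 times the FPKM of decorin in Myh6-ctl replicates 1, 2 and 3 and 1.97, 1.04 and 1.10 times in Myh6-tg. The ratio was 0.345 to 0.506 in EIIa-ctl and 0.255 to 0.457 in EIIa-tg, so that biglycan exceeded decorin only in the 3 Myh6-tg hearts among the 12. Replicate 1, the Myh6-tg heart with the lowest levels of all 9 genes, had the highest ratio. Lumican had 0.115 to 0.212 times the FPKM of decorin in Myh6-ctl and 0.0590 to 0.0708 times in Myh6-tg, where the 3 hearts lay close together. For asporin the ratio to decorin was 0.0430 to 0.0698 in Myh6-ctl and 0.133 to 0.180 in Myh6-tg, and 0.0517 to 0.0594 in EIIa-ctl and 0.0244 to 0.0454 in EIIa-tg.

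**Figure D4:**
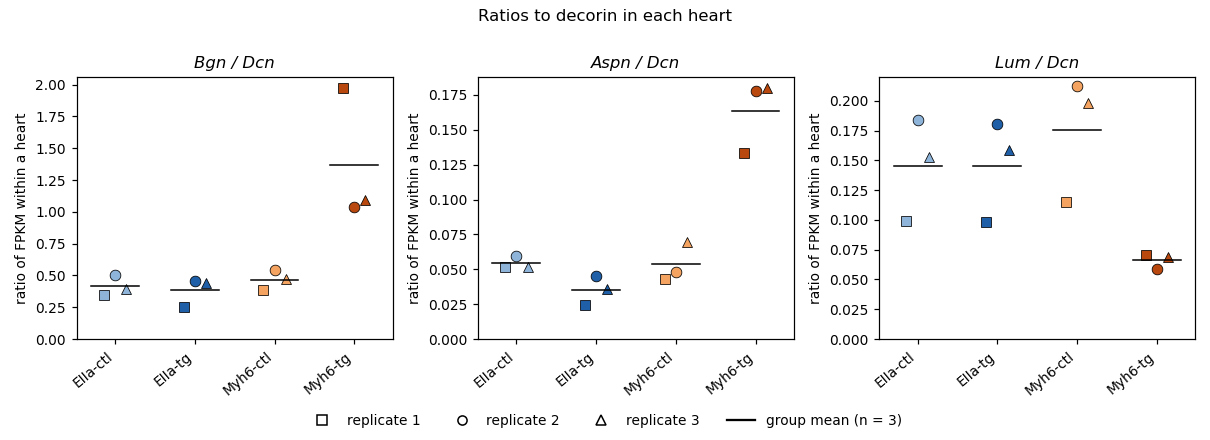
Ratio of the FPKM of Bgn, Aspn and Lum to that of Dcn within each heart (vertical axes, linear from 0) by group (horizontal axis), with marker shapes for replicates and a line at the group mean. The ratio of Bgn to Dcn was 1.04 to 1.97 in Myh6-tg and at most 0.542 in all other hearts, and that of Lum to Dcn was at most 0.0708 in Myh6-tg and at least 0.0984 in all other hearts.

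Whether the genes changed differently in the 2 models was tested as the change in Myh6-tg minus the change in EIIa-tg over all 12 hearts. In edgeR 0 of 9 genes were called, beside 3.92% of all 15929 genes tested. At an unadjusted p under 0.05, 6 of the 9 genes and 3092 of all genes passed. DESeq2 called 6 of the 9, without a share of all genes to set beside it. The differences on the log2 scale were 2.03 for asporin (SE 0.55, edgeR adjusted p = 0.0623), 5.48 for fibromodulin (SE 1.56, 0.0753), -1.70 for lumican (SE 0.52, 0.0984) and 1.22 for biglycan (SE 0.38, 0.101). Osteomodulin (1.76, SE 0.56) and Prelp (1.41, SE 0.49) had adjusted p of 0.107 and 0.132. Decorin, versican and mimecan differed by -0.30, 0.12 and 0.43, with edgeR adjusted p of at least 0.524. Without Myh6-tg replicate 1 edgeR called 5 of the 9 differences. With a block for the replicate number, 2 were called. Age, Cre line, tamoxifen and the tissue that expressed the repeat differ between the models together and cannot be told apart.

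The controls of the models, at 30 and 90 days of age, were compared to see where the levels started. In edgeR 0 of 9 genes were called, beside 0.0334% of all 14990 genes. At an unadjusted p under 0.05, 3 of the 9 genes and 1700 of all genes passed. DESeq2 called 1 of the 9, without a share of all genes to set beside it. All 9 log2 fold changes of Myh6-ctl over EIIa-ctl were above 0. They were 0.45 (SE 0.15, edgeR adjusted p = 0.276) for decorin, which was higher in each Myh6-ctl heart than in any EIIa-ctl heart, 0.73 (SE 0.31, 0.420) for lumican and 0.62 (SE 0.22, 0.342) for biglycan. Age, line and oil injection cannot be told apart here. Both transgenic comparisons and this one share control hearts.

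Several of the genes lie next to each other in the genome (GRCm38, positions from GENCODE M21). Dcn (chr10:97479609-97518143) and Lum (chr10:97565128-97572703) lie with Kera and Epyc in a cluster of 203 kb, all on the plus strand. In Myh6-tg hearts Dcn had a log2 fold change of 0.64 and Lum one of -0.79. Kera and Epyc, whose products keratocan and epiphycan are known from cornea and cartilage, had at most 4 and 8 counts in any heart. Ecm2, Aspn (chr13:49544443-49567565), Omd (chr13:49582462-49592822) and Ogn (chr13:49608046-49624501) lie on the plus strand within 120 kb. In Myh6-tg hearts their log2 fold changes were 0.47 (edgeR adjusted p = 0.437), 2.30, 2.13 and 0.22, so that the 2 middle genes were called and the outer genes were not. Ecm2, which encodes a related matrix protein, had 42.4, 37.2 and 44.4 CPM in Myh6-ctl and 24.0, 70.0 and 78.2 CPM in Myh6-tg. The 4 genes lie inside the span of Cenpp, which is on the opposite strand, had only 23 to 122 counts, and shares 7 exonic bases with Aspn and 0 with Omd and Ogn. Prelp (chr1:133910304-133921414) and Fmod (chr1:134037254-134048277) lie 138 kb from end to end on opposite strands, with Optc (at most 19 counts) beside Prelp. Prelp shares 350 exonic bases with an antisense gene, Gm15851, that is not used here, and the strand of the counting is not given in the sources used here. Bgn is on chromosome X (chrX:73483602-73495933), Vcan on chr13:89655312-89742509 and Acan on chr7:79053483-79115099.

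The sequences before the start sites of the 4 genes called in Myh6-tg hearts are shown because these are the genes that passed the test there, although Fmod in replicate 1 lay inside the control range. RefSeq promoters (GRCm38.p6) were found for 8 of the 10 genes, all but Dcn and Lum. Each line gives the 250 bases before the start, 5′ to 3′ on the strand of the gene, which is plus for all 4, and capitals mark matches on either strand to 5 motifs, where overlapping matches run together. The motifs were TATAAA for the TATA box, GGGCGG for the GC box, CCAAT for the CCAAT box, GGAATG for the site of TEAD factors and TGANTCA for that of AP-1.
Bgn, chrX:73483351-73483600: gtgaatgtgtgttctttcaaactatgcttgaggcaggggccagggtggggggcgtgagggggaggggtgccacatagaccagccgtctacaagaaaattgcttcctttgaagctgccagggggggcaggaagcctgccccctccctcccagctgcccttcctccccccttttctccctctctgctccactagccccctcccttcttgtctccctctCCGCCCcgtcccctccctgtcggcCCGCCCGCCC
Aspn, chr13:49544193-49544442: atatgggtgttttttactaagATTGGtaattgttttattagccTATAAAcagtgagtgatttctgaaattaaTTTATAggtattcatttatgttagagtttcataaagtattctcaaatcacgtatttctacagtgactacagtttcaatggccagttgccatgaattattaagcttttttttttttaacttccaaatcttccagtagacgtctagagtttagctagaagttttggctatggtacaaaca
Omd, chr13:49582212-49582461: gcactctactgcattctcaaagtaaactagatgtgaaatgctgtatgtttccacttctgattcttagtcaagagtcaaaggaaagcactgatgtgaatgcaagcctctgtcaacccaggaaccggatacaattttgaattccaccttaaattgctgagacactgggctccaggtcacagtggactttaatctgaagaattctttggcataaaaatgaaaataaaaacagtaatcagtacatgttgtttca
Fmod, chr1:134037004-134037253: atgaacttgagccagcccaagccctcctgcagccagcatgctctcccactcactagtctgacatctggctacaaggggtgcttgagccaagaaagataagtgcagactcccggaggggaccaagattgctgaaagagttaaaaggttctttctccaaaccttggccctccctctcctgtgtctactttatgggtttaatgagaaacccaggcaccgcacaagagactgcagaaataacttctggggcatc
Counted from the start, whose last preceding base is -1, Bgn had 3 matches to the GC box between positions -34 and -1. Aspn had 2 matches to the TATA box, on opposite strands, and 1 to the CCAAT box, between positions -229 and -173. Omd and Fmod had no match to any of the 5 motifs. Among 32851 RefSeq promoters cut in the same way, 32.7% held the GC box, 12.4% the TATA box, 33.8% the CCAAT box, 12.6% the TEAD site and 6.75% the AP-1 site. GC content was 64.4% for Bgn, 51.2% for Fmod, 38.4% for Omd and 30.0% for Aspn. The 4 windows thus shared no motif of those searched, which says nothing of other motifs or of other regions.

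Genes that build, modify and cut proteoglycans were read from lists of 16, 10, 12, 24, 26 and 11 genes, by counts of calls in edgeR at an adjusted p under 0.05, without a test of the lists. Of all genes tested, 8.65% were called higher and 8.3% lower in EIIa-tg, and 8.96% and 9.38% in Myh6-tg hearts. Counts near these shares, here and in the paragraphs on the other lists, are not read as results about a list. Of the enzymes of chondroitin and dermatan sulfate synthesis, which build the chains of decorin, biglycan and versican, 7 of 25 tested were higher and 0 lower in Myh6-tg hearts, with a median log2 fold change of 0.51. Chpf2 and Chpf, which take part in chain polymerization, rose from 16.1 to 73.4 CPM and from 34.2 to 69.7 CPM on average (log2 fold changes 2.19, SE 0.16, and 1.03, SE 0.19, adjusted p of 0.00107 and 0.0133). Chst11, a chondroitin 4-sulfotransferase, rose from 6.11 to 14.2 CPM (1.22, SE 0.23, adjusted p = 0.0138). In EIIa-tg hearts 3 of 24 were higher and 2 lower. Chpf2 was among the higher genes (0.62, SE 0.15, adjusted p = 0.0331), and Fam20b, a xylose kinase of the linker, and Chst15, a sulfotransferase, fell by 0.54 and 0.53 on the log2 scale (adjusted p = 0.0248 and 0.0271).

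The list of genes that cut versican and aggrecan or process SLRPs also held Pcolce and Pcolce2, which enhance the cleavage of procollagen and are not proteases themselves. Of its 11 genes tested, 4 were higher and 0 lower in Myh6-tg hearts. Bmp1, which removes the propeptides of biglycan and mimecan, rose by a log2 fold change of 0.92 (SE 0.17, edgeR adjusted p = 0.0124), and the versican-cutting proteases Adamts5 and Adamts1 by 1.25 (SE 0.26, 0.0166) and 1.05 (SE 0.27, 0.0347). The fourth was Pcolce, named after its values were seen, at 0.89 (SE 0.23, edgeR adjusted p = 0.0352). In EIIa-tg hearts 0 of 11 were higher and 1 was lower, Adamts9, which fell by 0.88 (SE 0.22, edgeR adjusted p = 0.0336).

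Of the core proteins of heparan sulfate and other proteoglycans, 5 of 19 were higher and 1 lower in Myh6-tg and 3 of 18 higher and 0 lower in EIIa-tg hearts. Prg4, the joint lubricant lubricin, rose in both models, from 18.3 to 127 CPM in Myh6-tg (log2 fold change 2.79, SE 0.18, edgeR adjusted p = 0.000984) and from 7.48 to 62.6 CPM in EIIa-tg (3.05, SE 0.49, 0.0166). Spock2, a testican, rose by 2.42 (SE 0.45, edgeR adjusted p = 0.0133) and 2.16 (SE 0.36, 0.0166). Gpc4, a glypican on the cell surface, rose in Myh6-tg hearts (0.96, SE 0.15, edgeR adjusted p = 0.00847).

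Of the hyaluronan enzymes, link proteins and other hyalectans, 2 of 10 were higher and 0 lower in EIIa-tg hearts, and 1 was higher and 1 lower of 10 in Myh6-tg. Cd44, a receptor of hyaluronan, rose in both (log2 fold changes 0.83, SE 0.20, edgeR adjusted p = 0.0299, and 1.26, SE 0.26, 0.0169). Of the hyaluronan synthases, Has3 fell in Myh6-tg from 1.99 to 0.429 CPM (edgeR adjusted p = 0.0482). Has1 was called higher in EIIa-tg, from 0.174 to 1.08 CPM (edgeR adjusted p = 0.0368). At its low level in EIIa-ctl it passed the filter through the EIIa-tg hearts, so this call is not read as a result. Of the keratan sulfate enzymes, which serve lumican and fibromodulin, 2 of 8 were lower in EIIa-tg, Chst1 and St3gal3 (log2 fold changes -0.98 and -0.81, edgeR adjusted p of 0.0433 and 0.0438). In Myh6-tg hearts 0 of 8 were called in edgeR, while St3gal3 (-1.25) and B4galt4 (-0.62) had an unadjusted p under 0.05.

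Among the other SLRP genes, 1 of 6 tested was called in EIIa-tg hearts, podocan (Podn), which rose from 17.2 to 28.8 CPM (log2 fold change 0.74, SE 0.12, edgeR adjusted p = 0.0166). In Myh6-tg hearts Podn had a mean of 17.0 CPM beside 27.0 CPM in Myh6-ctl (-0.67, SE 0.29, edgeR adjusted p = 0.152), and 0 of 5 genes of this list were called, with 1, Chadl, at an unadjusted p under 0.05.

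**Figure D5:**
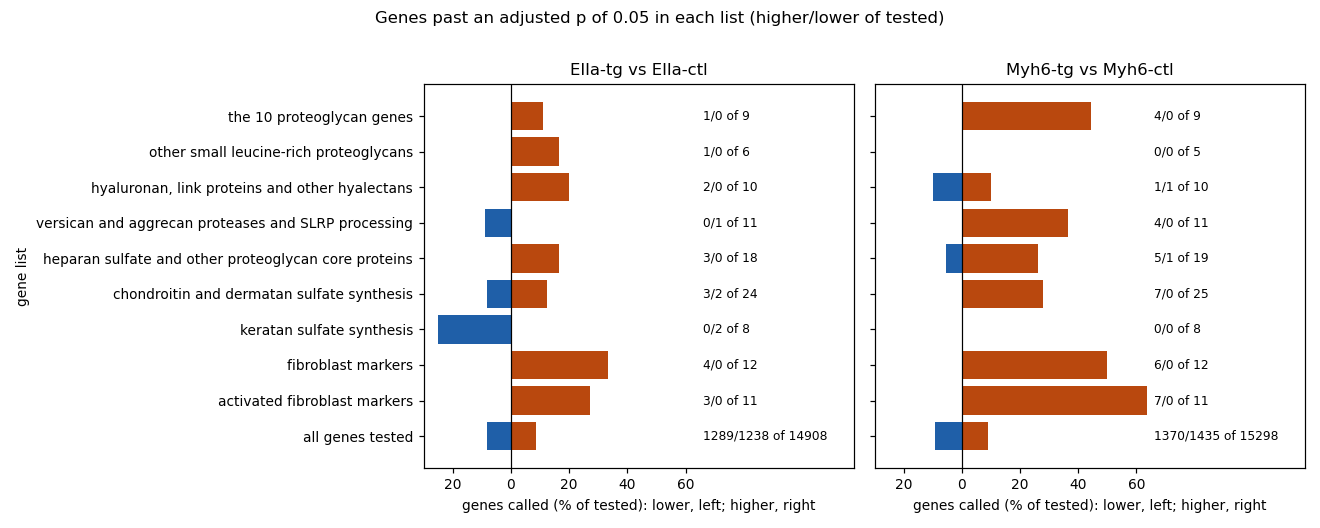
Percentage of the tested genes of each list (vertical axis) called lower (blue, to the left) or higher (orange, to the right) at an adjusted p under 0.05 in edgeR, for EIIa-tg against EIIa-ctl (left panel) and Myh6-tg against Myh6-ctl (right panel), with the counts higher/lower of tested printed beside the bars. Among all genes tested 8.65% were higher and 8.3% lower in the left panel and 8.96% and 9.38% in the right one, and 4 of the 9 proteoglycan genes were higher in the right panel.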

How the data were processed

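Heart RNA of 12 mice was measured, 3 in each group. According to the methods of the study, libraries from an NEBNext Ultra kit gave paired-end reads on a NovaSeq, which Hisat2 aligned to GRCm38. The submitters' processing notes name HISAT2 2.0.4, StringTie 2.2.1 and DESeq2, and list both GRCm39 and mm10 (the latter another name for GRCm38). The files hold no coordinates, so the positions given are those of the GRCm38 annotation. The counting program, its annotation and its use of strand are not given in the sources used here. The authors deposited counts, whole numbers of reads per locus without normalization, and FPKM values, which they scaled to transcript length and library size. Of 25171 loci, 3135 are named NewGene by the authors. Every column of values belonged to a sample of the series.

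Hearts were grouped by their titles. The genotype labels of EIIa-tg replicates differ from each other. The members and gene lists were chosen with earlier results of these data known. Genes were filtered by filterByExpr with the group given, scaled by TMM and tested by the quasi-likelihood functions (glmQLFit, glmQLFTest) of edgeR 4.0.16 in R 4.3.3, in the 6 hearts of each comparison or in all 12 for the difference between models, with Benjamini-Hochberg adjustment over all genes tested. Intervals of log2 fold changes are at 95%. Genes were named by a rule that takes all 10 members, the genes of each list with the lowest p, up to 3 in Myh6-tg and 2 in EIIa-tg, neighbouring SLRP genes, and label checks. Of these, most marker genes are given as counts and sums. Named are some markers of cartilage, tendon and valve, some cardiomyocyte markers, and the markers of both fibroblast lists with a log2 fold change below 0 in Myh6-tg hearts. Ust, Dse, Sdc1 and other genes called outside the rule are counted but not named with values. The floor of 3 counts covers counting error only, at 38343106 to 50969834 counts per heart. Labels say that replicates are biological, and nothing ties hearts to litters or days.

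Deviations of same-numbered Myh6-ctl and Myh6-tg hearts from their group means correlated at 0.283, 0.231 and 0.250 for replicates 1, 2 and 3. Differently numbered hearts were not compared, and no label pairs these hearts. The replicate block thus rests on these data alone, and a call that it adds or ends is not independent support. Alternatives were DESeq2 1.42.0, RLE factors, other filters, all hearts in one fit, a replicate block, removal of mt- or NewGene loci, a covariate for Y-linked counts, limma 3.58.1 on log2 FPKM with pseudocounts of 1 and 0.1, the thresholds of the study, each heart left out and, chosen after seeing the data, replicate 1 of every group left out. In simulated data edgeR called 12.5% of genes changed by 1 and 81.8% of those changed by 2 on the log2 scale in the Myh6 comparison (15298 genes), with 5 false calls, and 82.1% and 98.9% in the EIIa comparison (14908 genes), with 15. Positions are from GENCODE M21 and promoters from RefSeq (GRCm38.p6). Plots were made in Python 3.11.15 (matplotlib 3.10.9).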

Additional observations from a re-analysis of the deposited data

Results flagged for a closer look

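Lumican was singled out because its 3 EIIa-tg hearts were above the mean of their controls and its 3 Myh6-tg hearts below theirs. The change in Myh6-tg minus that in EIIa-tg was -1.70 on the log2 scale, which missed the threshold in edgeR (adjusted p = 0.0984). In the lists of other proteoglycan genes and of genes that build, modify and cut proteoglycans, the change differed between the models in edgeR for Podn (-1.41, adjusted p = 0.0391), Adamts5 (1.20, 0.0429), Adamts8 (2.83, 0.0267), Gpc4 (0.85, 0.0472) and Chpf2 (1.57, 0.00416). Of all genes tested, 3.92% were called. Of the cartilage, tendon and valve markers, Col11a1 was also called (9.61, edgeR adjusted p = 0.00386), but it was at 0 in the Myh6-ctl hearts and is not read as a result. Podn and Adamts8 also lay on opposite sides of their control means in the hearts of the 2 models.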

How the results depend on the processing

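In the EIIa model the main count of 1 gene called became 4 with DESeq2, 2 with RLE factors, 3 with no filter on low counts, 2 with a minimum of 1 CPM in 3 or more hearts, 2 without NewGene loci, 2 with a covariate for Y-linked counts and 3 with limma on log2(FPKM + 1). It became 0 with all 12 hearts in one fit, with the replicate block, with limma on log2(FPKM + 1) and no filter, with the thresholds of the study and without replicate 1 of every group, and lay between 0 and 4 with 1 heart left out. Without EIIa-ctl replicate 2 it was 4, and without EIIa-ctl replicate 1 or 3 or EIIa-tg replicate 1 or 3 it was 0. Same-numbered EIIa hearts did not deviate together (correlations of 0.156, -0.123 and -0.110), so the block of 0 calls is not read as a weaker effect. In the Myh6 model the count of 4 became 2 with limma on log2(FPKM + 1) and no filter, 1 with the thresholds of the study and 8 without replicate 1 of every group, and lay between 1 and 7 with 1 heart left out. It was 7 without Myh6-tg replicate 1 and 1 without Myh6-ctl replicate 1 or 2 or Myh6-tg replicate 2 or 3. With the replicate block it was 5. For the difference between models, 0 became 6 with DESeq2, 1 with no filter on low counts, 2 with the replicate block, 3 with the covariate for Y-linked counts and 4 without replicate 1 of every group, and lay between 0 and 5 with 1 heart left out, 5 being the value without Myh6-tg replicate 1. For Myh6-ctl against EIIa-ctl, 0 became 1 with DESeq2 and stayed at 0 with each heart left out. The share of all genes called in these alternative settings is not given here, and the cause of these changes was not tested.

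Single genes turned direction at small changes. In EIIa-tg, Fmod went from -0.14 to 0.0271 with limma on log2(FPKM + 1), filtered or not, to 0.0811 with a pseudocount of 0.1, and to between -0.37 and 0.32 with 1 heart left out (above 0 when EIIa-ctl replicate 2 was out or EIIa-tg replicate 1). Prelp went from 0.0332 to between -0.0690 and 0.18 (below 0 without EIIa-ctl replicate 1 or 3 or EIIa-tg replicate 3). In Myh6-tg, Ogn lay between -0.0789 and 0.45 (below 0 without Myh6-tg replicate 3). The difference between models lay between -0.53 and 0.0188 for Dcn (above 0 without Myh6-tg replicate 1) and was 0.0424 without replicate 1 of every group. For Vcan it lay between -0.24 and 0.41 (below 0 without EIIa-ctl replicate 2, EIIa-tg replicate 1, Myh6-ctl replicate 2 or Myh6-tg replicate 2 or 3). For Myh6-ctl against EIIa-ctl, Prelp lay between -0.0444 and 0.21 (below 0 without EIIa-ctl replicate 3) and was -0.0316 without replicate 1 of every group, and without Myh6-ctl replicate 3 Fmod (-0.21 to 0.97) and Ogn (-0.0408 to 0.23) were at their lowest. Of the other values for single genes, 634 kept direction and call, 50 gained a call and 25 lost it. Shares of summed counts in place of FPKM moved that of Prelp in EIIa-tg to -1.89 points, of Acan to 0.0067, and in Myh6-tg of Ogn to -3.69 and of Vcan to -0.32. On log2(FPKM + 1) the median change of all genes was 0.16 in the EIIa and 0.34 in the Myh6 model, beside 0.02 and 0.03 with TMM, so changes on that scale are read against these medians.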

Other observations

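Chondroadherin (Chad), a collagen-binding SLRP of cartilage, had 0.0427, 4.32 and 4.13 CPM in Myh6-tg replicates 1, 2 and 3, and 0.0452, 0 and 0.0569 CPM in Myh6-ctl. Tenomodulin (Tnmd), a membrane protein of tendon cells, had 0, 5.14 and 4.14 CPM in Myh6-tg and was at 0 in the 3 Myh6-ctl hearts. Both genes were singled out after their values were seen, and no test is given for them. Replicates 2 and 3 are the hearts in which fibromodulin was at 161 and 256 CPM.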
